A study of Mus musculus with 12 samples.

Results

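Panobinostat, called LBH589 in the labels, was left on tumour cells for 6 h or for 12 h, and the change between those times under continued drug was followed across all genes. The cells are MP cells, with which the study models Group 3 medulloblastoma driven by MYC in the mouse. They came from 3 tumours, MP525, MP567 and MP570, grown in the cerebellum of NSG mice. Dissociated cells were plated in neurocult medium with a proliferation supplement. Cultures then received 25 nM LBH589 or 0.00025% DMSO, the solvent control, and were lysed after 6 or 12 h. The comparison used the 3 arrays of LBH589 at 12 h and the 3 of LBH589 at 6 h, 6 of the 12 arrays of the series, matched by tumour. The 3 DMSO arrays at each time showed the change with culture time alone. Each tumour gave 1 array to each group, so n = 3 tumours throughout. Nothing in the labels says whether several mice or platings stand behind a tumour name, so p-values measure the spread between these cultures.

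Panobinostat blocks histone deacetylases, the enzymes that take acetyl groups off histone tails and other proteins. Blocking them raises acetylation within hours, and many genes then change early and directly, while others change later through the factors that the first wave altered. Group 3 medulloblastoma is an aggressive tumour of the cerebellum in which MYC is often highly expressed and cell division is fast. NSG mice lack mature T, B and NK cells but keep macrophages and connective tissue cells, which can be carried into a tumour cell culture.

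Levels of total RNA come from Affymetrix Mouse Gene 2.0 ST arrays and are log2 values, so a difference of 1 is a doubling. Of 41345 probe sets, 23521 named exactly 1 gene. They stood for 22180 genes, and 18652 of these were bright enough to be tested. Array medians lay between 7.10 and 7.21, and the 6 LBH589 arrays correlated at 0.974 to 0.991 with one another. A gene was called changed at an adjusted p under 0.05 (limma, tumour as a block, Benjamini-Hochberg over the 18652 genes). Labelled cell type was checked on marker lists. Of 9 cerebellar granule lineage markers, 8 lay above the 25th percentile on all 6 LBH589 arrays. Zic1 read 11.07 to 11.85 on these arrays, while Barhl1 read 6.89 to 7.62, near the array medians. Atoh1, a gene of the same lineage, read 9.84 and 10.52 in MP525 under LBH589, at 6 and 12 h, and lay between 8.05 and 8.75 in the other tumours. In DMSO it read 11.95 and 11.78 in MP525 at those times, and 7.71 to 8.22 in the other tumours. The mature granule neuron gene Gabra6 was below the 25th percentile on all 6.

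The promoters of 7 genes are shown because their genes carry the late rises and falls described below and hold motifs of the factor families known for those programmes. The windows come from RefSeq (GRCm38.p6), are written 5′ to 3′ on the gene's strand, and hold the 250 bases before the annotated gene start. Capitals mark the motif named, and a match on the opposite strand is written as its reverse complement. Positions give the motif's leftmost base counted from the gene start. The first 3 hold an AP-1 motif (TGANTCA), the site of FOS and JUN proteins. It lies at -35 in Mmp13 (chr9:7272264-7272513, plus strand), at -46 in Mmp3 (chr9:7445572-7445821, plus strand) and at -249 in Il6 (chr5:30012864-30013113, plus strand).
Mmp13: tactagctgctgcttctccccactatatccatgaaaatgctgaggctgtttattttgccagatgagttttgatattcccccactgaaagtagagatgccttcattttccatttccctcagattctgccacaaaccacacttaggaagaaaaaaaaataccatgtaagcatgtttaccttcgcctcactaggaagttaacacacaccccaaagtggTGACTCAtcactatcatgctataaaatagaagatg
Mmp3: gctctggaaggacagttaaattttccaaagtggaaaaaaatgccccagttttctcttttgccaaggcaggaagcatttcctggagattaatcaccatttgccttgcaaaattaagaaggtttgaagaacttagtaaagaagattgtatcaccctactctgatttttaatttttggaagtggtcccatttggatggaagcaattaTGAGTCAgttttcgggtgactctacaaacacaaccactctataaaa
Il6: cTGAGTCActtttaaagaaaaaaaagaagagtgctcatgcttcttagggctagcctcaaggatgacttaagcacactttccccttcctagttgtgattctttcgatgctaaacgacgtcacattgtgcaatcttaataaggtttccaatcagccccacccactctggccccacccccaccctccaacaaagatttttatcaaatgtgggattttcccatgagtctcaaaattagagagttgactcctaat

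Kif11 and Top2a hold the cell cycle genes homology region (CHR, TTTGAA), an element of genes that are active in G2 and mitosis. It lies at -19 in Kif11 (chr19:37376132-37376381, plus strand) and at -179 and -23 in Top2a (chr11:99024190-99024439, minus strand).
Kif11: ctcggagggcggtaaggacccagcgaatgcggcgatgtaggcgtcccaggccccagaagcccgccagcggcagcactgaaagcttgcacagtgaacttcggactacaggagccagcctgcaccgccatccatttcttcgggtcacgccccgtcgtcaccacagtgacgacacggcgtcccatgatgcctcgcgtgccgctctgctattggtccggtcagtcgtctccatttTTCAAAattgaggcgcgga
Top2a: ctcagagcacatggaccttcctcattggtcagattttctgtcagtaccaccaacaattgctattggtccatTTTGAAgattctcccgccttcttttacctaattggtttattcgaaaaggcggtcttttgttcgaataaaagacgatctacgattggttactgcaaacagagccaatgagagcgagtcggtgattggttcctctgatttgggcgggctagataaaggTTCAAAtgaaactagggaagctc

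Slc7a11 and Chac1 hold the ATF4 element (TGATGNAA), through which the amino acid response factor ATF4 acts. It lies at -66 and -47 in Slc7a11 (chr3:50443614-50443863, minus strand) and at -193 in Chac1 (chr2:119350992-119351241, plus strand).
Slc7a11: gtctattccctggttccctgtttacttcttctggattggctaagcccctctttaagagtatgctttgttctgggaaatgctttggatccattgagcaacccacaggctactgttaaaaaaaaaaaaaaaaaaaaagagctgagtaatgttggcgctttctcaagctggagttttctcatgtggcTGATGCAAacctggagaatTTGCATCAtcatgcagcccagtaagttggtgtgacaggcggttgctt
Chac1: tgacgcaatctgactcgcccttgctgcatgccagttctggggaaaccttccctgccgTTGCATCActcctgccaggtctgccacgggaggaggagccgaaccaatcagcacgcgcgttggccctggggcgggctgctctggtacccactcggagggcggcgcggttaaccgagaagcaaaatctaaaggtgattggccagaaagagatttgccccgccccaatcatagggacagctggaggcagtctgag

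Motifs were searched on both strands over windows that also took in the 50 bases after the start, and none of the matches in capitals overlapped another searched motif. AP-1 was found in 4 of the 12 largest rises that had a window (Il6, Mmp13, Mmp3 and Serpinb2) and in 7.8% of all 32851 windows. The CHR was found in 8 of the 12 falling mitotic genes that had a window (Aurka, Kif11, Kif23, Kif2c, Plk1, Prc1, Top2a and Ttk) and in 17.9% of all windows. CCAAT, the site of the NF-Y factor, was in 9 of those 12 and in 37.4% of all windows. The ATF4 element was in 1 of the 12 largest rises (Slc7a11) and 1 of the 13 largest falls with a window (Chac1). It was also in 1 of the 12 mitotic genes (Kif2c) and in 4.0% of all windows. The kappaB motif of NF-kappaB was in 2 of those rises (Il6 and Prph), 2 of those falls (Cstf3 and Ska3) and 8.5% of all windows. The interferon element ISRE was in 2 of those rises (Mmp13 and Saa3), 0 of those falls and 3.4% of all windows. A match is a description of the letters only, and some genes have more than 1 window.

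Between 6 and 12 h of LBH589, 371 of 18652 genes changed, 1.99% of those tested. Of these, 135 were higher at 12 h (0.724%) and 236 lower (1.27%). Among the lists examined, 6 of 34 genes of the chemokine and cytokine list rose, including Ptgs2, which codes for an enzyme. Of 24 genes for matrix proteases and their inhibitors, 5 rose. Falls came in 15 of 29 mitosis, 5 of 30 DNA replication and 5 of 22 DNA repair genes. The other members of these lists were not called, apart from 1 protease that fell. The rises were larger: 18 genes rose by 1 or more on the log2 scale, and 1 gene, Chac1, fell by as much. The median size was 0.55 among the rises and 0.44 among the falls. All 371 moved the same way in the 3 tumours, which follows largely from calling them on these same paired changes. In 230 of them the 6 h and 12 h values did not overlap, against 12.3% of all genes, and the calling favours this too. The changes of 2 tumours correlated at 0.349 to 0.425 across the 18652 genes, which are not independent of one another. MP570 changed most: it had the largest change of the 3 tumours in 215 of the 371 genes, MP525 in 93 and MP567 in 63.

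These calls rest on matching by tumour, and without the tumour block no gene was called, with 1415 at an unadjusted p under 0.05 against 3438 with it. They also rest on single cultures: without the LBH589 array of MP525 at 6 h 10 genes were called, without MP570 at 6 h 11, without MP570 at 12 h 25, without MP567 at 6 h 77, without MP525 at 12 h 785, and without the DMSO array of MP525 at 6 h 244. The balance of directions also moved with the scaling, from 135 higher and 236 lower to 146 and 121 under quantile normalization. Centring on 11 reference genes gave 694 higher and 89 lower and shifted the median change of all genes by 0.12; that list holds Tfrc, which itself fell by 0.80 here.

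The same hours in DMSO changed 58 genes (0.311%), 41 of them higher (0.220%) and 17 lower (0.0911%). The calls under drug and in solvent had 8 genes in common, 2.16% of the first list and 13.8% of the second: Ccl5, Saa3, B2m, Sp100 and the heparan sulphate proteoglycan Sdc3 rose in both, and Chac1, Slc7a5 and the neutral amino acid transporter Slc1a4 fell in both. Of the 135 genes that rose under LBH589, 103 (76.3%) had a DMSO change above 0, against 51.2% of all genes. Their median change in DMSO was 0.11. Of the 236 that fell, 172 (72.9%) had a DMSO change under 0, with a median of -0.05. The DMSO change was the smaller one in 364 of the 371 genes, which follows largely from calling them on the LBH589 change. The difference between the 2 time changes passed the adjusted threshold for only 2 of all genes (0.0107%), Rnf213 and Ddx58, and at an unadjusted p under 0.05 for 1729. So for all 371 genes that changed under drug, a difference from the change in solvent was not shown after adjustment, and 293 of them reached it unadjusted. The calling favours that count too, since the difference contains the LBH589 change on which the genes were called. The 58 calls in DMSO became 21 without MP525 at 6 h, 37 without MP567 at 6 h, 20 without MP570 at 6 h, 31 without MP525 at 12 h and 21 without MP570 at 12 h in DMSO. The 2 differences became 11 and 4 without MP567 at 12 and 6 h in DMSO, and 5, 4 and 1 without MP525, MP567 and MP570 at 12 h under LBH589.

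**Figure D1:**
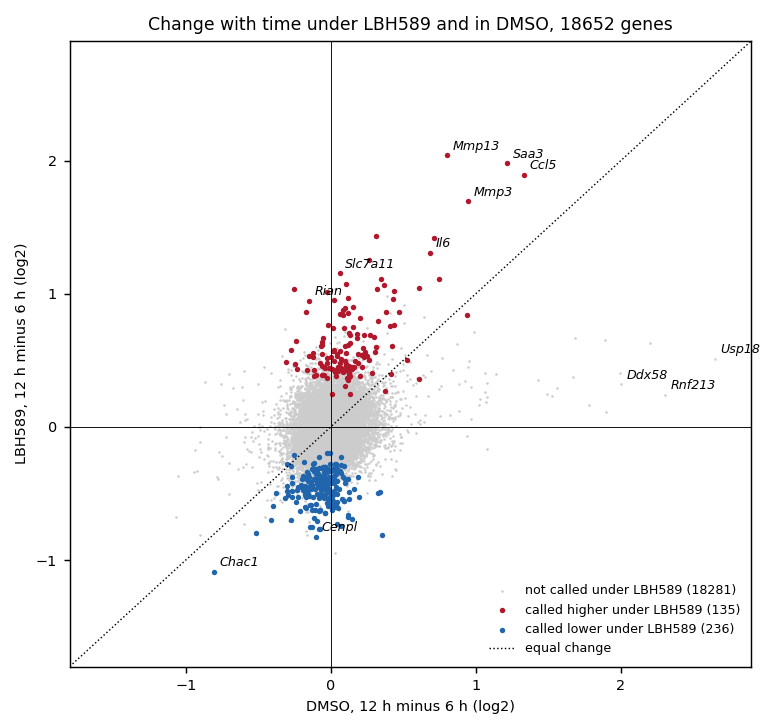
Change from 6 to 12 h in DMSO (horizontal axis, log2) and under LBH589 (vertical axis, log2) for the 18652 genes tested; red points rose and blue points fell under LBH589, and the dotted line marks equal change. Mmp13, Saa3 and Ccl5 stand at the top, and a tail of genes on the right holds Usp18, Rnf213 and Ddx58, which changed by 2.65, 2.31 and 2.0 in DMSO and by 0.51, 0.24 and 0.32 under LBH589.

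The largest rises were led by matrix metalloproteinases and acute-phase and chemokine genes. Mmp13, a collagenase, read 7.09, 8.87 and 9.39 at 6 h in MP525, MP567 and MP570 and 9.12, 10.91 and 11.44 at 12 h. Each tumour rose by about the same step from its own starting level, and the 2 times overlap only because MP525 started lower. The mean change was 2.04 (SE 0.20, limma adjusted p = 0.000617), beside 0.80 in DMSO (adjusted p = 0.208). Mmp3, which degrades matrix and activates other metalloproteinases, went from 6.89, 8.70 and 8.13 to 8.38, 10.23 and 10.21, a change of 1.70 (SE 0.29, adjusted p = 0.0148). Its DMSO values were 6.98, 8.58 and 9.95 at 6 h and 7.85, 9.76 and 10.74 at 12 h, a change of 0.94 that did not pass (adjusted p = 0.372).

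Of the 24 tested members of the list of matrix proteases and inhibitors, 5 rose and 1 fell. Timp1, an inhibitor of these proteases, rose by 1.07 (adjusted p = 0.0121), from 8.34, 9.12 and 8.59 to 8.97, 10.10 and 10.20; in DMSO it moved by 0.10. Mmp12, the macrophage elastase, rose by 0.96 (adjusted p = 0.0487) and Adamts1, a secreted protease that cuts proteoglycans, by 0.50 (adjusted p = 0.0438). Mmp16, a membrane-bound metalloproteinase, fell by 0.41 (adjusted p = 0.0332); it and Adamts1 were named after their values were seen. The median of the list was 0.13 under LBH589 and 0.07 in DMSO, beside 0.01 over all genes. The 5 rises became 1 without MP525 at 6 h, MP570 at 6 h or MP570 at 12 h under LBH589. They became 3 without MP567 at 6 h under LBH589 or without MP525 at 6 or 12 h in DMSO, and 0 without the tumour block or with it as a random block.

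Of 34 genes of the chemokine and cytokine list, 6 rose and none fell, and 30 of the 34 had a change above 0. Ccl5, a chemokine for T cells and monocytes, had the clearest separation, from 8.62, 9.51 and 9.60 at 6 h to 10.78, 11.20 and 11.44 at 12 h. The change was 1.89 (SE 0.15, limma adjusted p = 0.000115), and in DMSO it also rose, by 1.33 (adjusted p = 0.00146). Il6, an inflammatory cytokine, went from 5.94, 6.71 and 6.97 to 6.88, 8.19 and 8.47, a rise of 1.31 (SE 0.15, adjusted p = 0.00194), beside 0.69 in DMSO (adjusted p = 0.107). All 3 tumours moved by 0.94 or more, and the times overlap because MP525 was the lowest at both. The 6 h value of 5.94 in MP525 lay under the 25th percentile of its array, 6.04. Ptgs2, the inducible prostaglandin synthase, is an enzyme that this list also held. It rose by 1.42 (adjusted p = 0.0207), from 8.35, 9.35 and 7.76 to 9.34, 10.88 and 9.5, beside 0.71 in DMSO (adjusted p = 0.543).

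Cxcl5, a neutrophil chemokine, rose by 1.05 on average (adjusted p = 0.0472), but unevenly, and changed by 0.60 in DMSO (adjusted p = 0.592). It went from 6.80 to 6.83 in MP525, from 6.66 to 7.86 in MP567 and from 7.21 to 9.11 in MP570, so MP525 hardly moved. The other called members, named after their values were seen, were Il1b, which rose by 1.01 (adjusted p = 0.0121; -0.03 in DMSO), and Ccl3, which rose by 0.87 (adjusted p = 0.00676; 0.38 in DMSO). The median of the list was 0.26 under LBH589 and 0.10 in DMSO. The 6 calls became 2 without MP525 at 6 h, MP570 at 6 h or MP570 at 12 h under LBH589, 11 without MP525 at 12 h, 0 without the tumour block, and 1 with it as a random block.

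Saa3 and Lcn2, both secreted in acute-phase responses, rose as well. Saa3 read 7.40, 9.15 and 9.62 at 6 h and 8.96, 11.04 and 12.13 at 12 h, a change of 1.98 (SE 0.16, adjusted p = 0.000115). It rose in DMSO too, by 1.22 (adjusted p = 0.00527), from 7.09, 8.52 and 9.98 to 8.27, 9.84 and 11.12. Lcn2, which binds the siderophores of bacteria, rose by 1.26 (SE 0.21, adjusted p = 0.0148) and moved by 0.26 in DMSO. Acod1, which makes itaconate in activated macrophages, was nearly equal across tumours at 6 h, at 7.78, 7.93 and 7.78, and reached 8.71, 8.91 and 9.05 at 12 h, a rise of 1.06 (SE 0.13, adjusted p = 0.00341). Serpinb2, an inhibitor of plasminogen activators, rose by 1.44 (adjusted p = 0.0182), most in MP567, from 6.83 to 9.15.

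**Figure D2:**
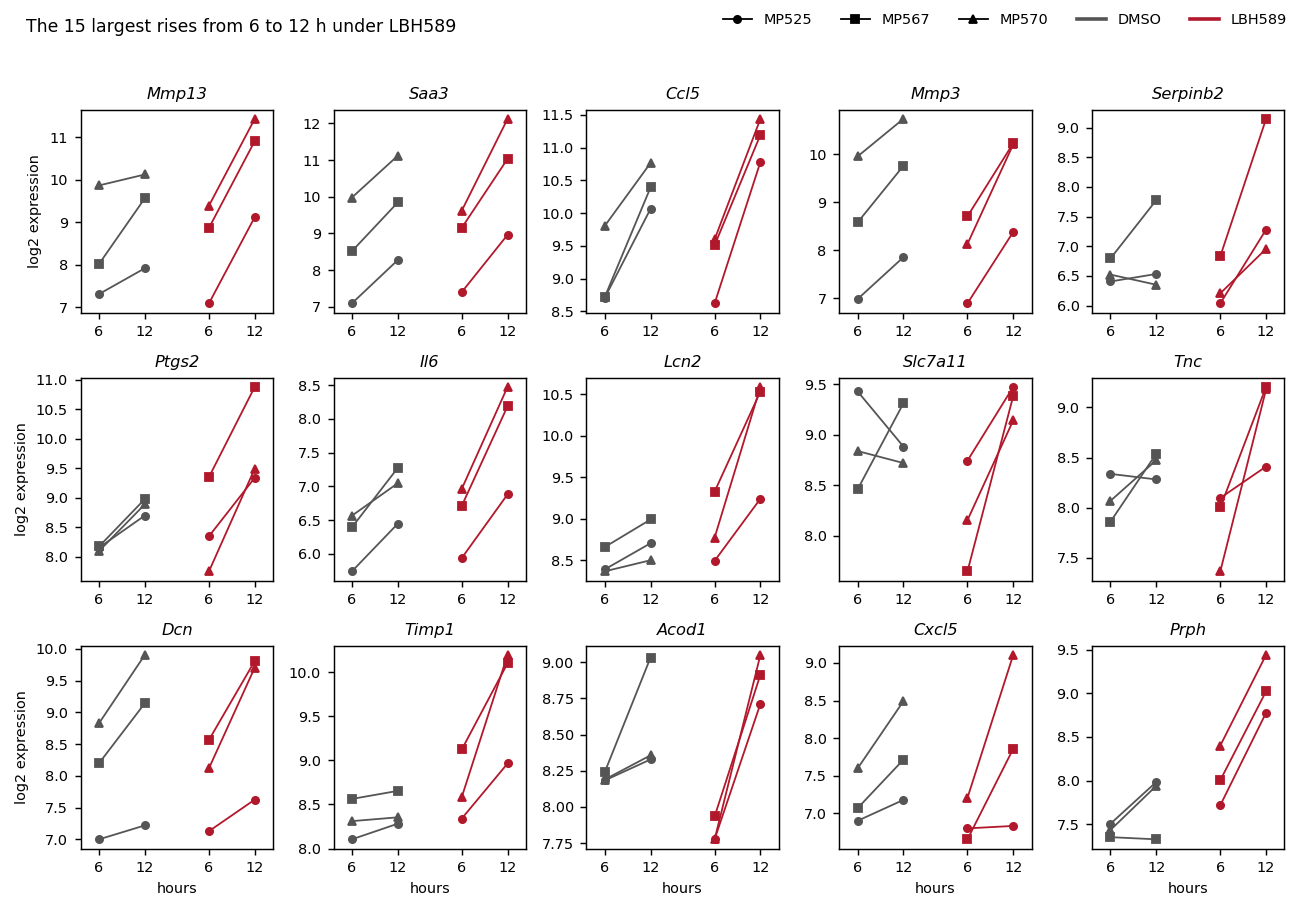
Log2 expression at 6 and 12 h in DMSO (grey) and under LBH589 (red) for the 15 largest rises; each line joins the 2 cultures of 1 tumour, marked by its symbol. In Mmp13 the 3 red lines rise in parallel to 9.12, 10.91 and 11.44, and in Cxcl5 the line of MP525 stays near 6.80.

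Some of these genes belong to other cell types that a tumour culture can hold. Dcn, a matrix proteoglycan of fibroblasts, rose by 1.11 (adjusted p = 0.0371) and Acta2, smooth muscle actin, by 0.64 (adjusted p = 0.0272), and both are among the 9 fibroblast and pericyte markers fixed for this check. None of the other 7 was called. The summed level of the 9, on the linear scale, changed 1.06, 1.35 and 1.54 times in MP525, MP567 and MP570 under LBH589 and 0.828, 1.23 and 1.13 times in DMSO. Dcn and Acta2 weigh heavily in this sum, so it is not a separate result. In MP567 they went from 8.57 to 9.81 and from 9.71 to 10.38, while Rgs5 went from 8.56 to 8.16. Of the 9, 8 had a change above 0 and 1 under 0, with a median of 0.22. It ranged from 2432 to 3020 at 6 h and from 2778 to 4072 at 12 h under LBH589, with 8 of the 9 above the 25th percentile on all 6 arrays. Of 15 microglia and macrophage markers, Adgre1 rose, by 0.77 (adjusted p = 0.0487), from 6.78, 6.99 and 6.81 to 7.55, 7.75 and 7.58. Its DMSO values went from 6.89, 6.96 and 6.92 to 7.36, 8.01 and 6.71, and none of the 15 was called in DMSO. The summed level of the 15 changed 1.05, 1.11 and 1.21 times under LBH589, and 1.0, 1.41 and 0.822 times in DMSO. It ranged from 3156 to 4264 at 6 h and from 3305 to 4719 at 12 h under LBH589. No marker of either list lay below the 25th percentile on all 6 LBH589 arrays, but Ptprc of the macrophage list did on 5 and Lum on 3. Lying above that cut-off does not show that a cell type is present. Of 8 T and NK cell markers, 7 also lay above it on all 6. The part of these cells in the rises was not tested, and in bulk samples more cells of a type and more RNA per cell cannot be told apart.

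**Figure D3:**
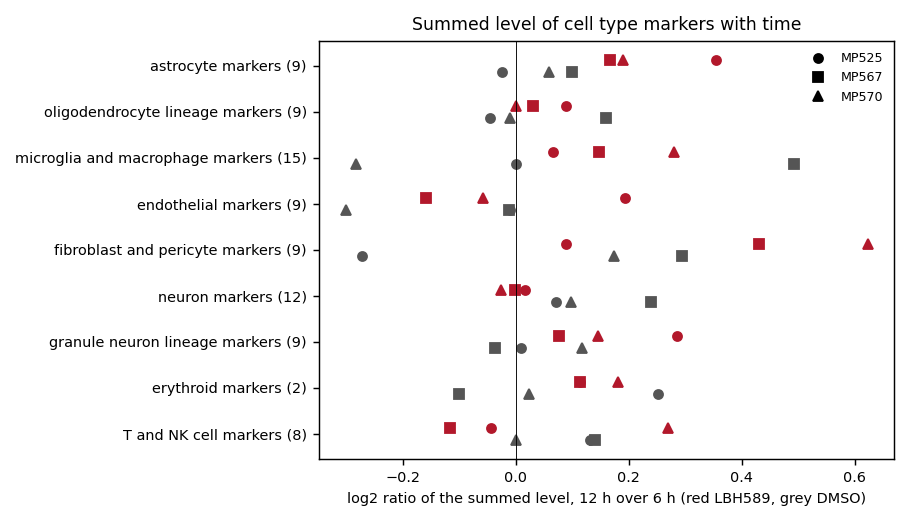
Log2 ratio of the summed level of cell type markers, 12 h over 6 h, by tumour (symbols) under LBH589 (red) and in DMSO (grey); the number of markers is in brackets. Fibroblast and pericyte markers lie highest under LBH589 in MP567 and MP570, at ratios of 1.35 and 1.54, but not in MP525, at 1.06. Astrocyte markers lie highest in MP525, at 1.28, and at 1.12 and 1.14 in MP567 and MP570. Neuron markers lie near 0. Dcn and Acta2 weigh heavily in the fibroblast and pericyte sum.

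Of 33 genes for collagens, laminins and integrins, 1 was called, while 31 had a change above 0, with a median of 0.19 under LBH589 and 0.02 in DMSO. That gene, Lamb2, a laminin chain, went from 7.54, 7.78 and 7.66 to 7.88, 8.15 and 8.17, a rise of 0.41 (adjusted p = 0.0478). Tnc, a matrix glycoprotein of gliomas and wounds, rose by 1.11 (adjusted p = 0.0258), from 8.10, 8.0 and 7.36 to 8.41, 9.21 and 9.18. MP570 was the lowest of the 3 tumours at 6 h and close to the highest at 12 h.

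Stress and signalling genes of the immediate early list rose in 2 of 30 cases. Ier3, an early response gene of NF-kappaB signalling, rose by 0.75 (adjusted p = 0.017) after it had stood 1.0 above DMSO at 6 h. Dusp1, a phosphatase that switches off MAP kinases, rose by 0.62 (adjusted p = 0.025), and at 6 h its difference from DMSO was 0.14 (adjusted p = 0.416). Here and below, the 6 h difference uses the same LBH589 6 h arrays as the time change, so the values stand side by side and are not independent. At 6 h, 34.0% of all genes differed between LBH589 and DMSO. Hspb8, a small heat shock protein, rose by 0.76 (adjusted p = 0.0185), the only called member of 20 heat shock chaperones.

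Of 23 NRF2 and glutathione genes, which defend against oxidants and electrophiles, 2 rose. Gsta4, a glutathione transferase for lipid peroxidation products, read 8.46, 8.73 and 8.87 at 6 h and 9.58, 9.62 and 9.54 at 12 h, a rise of 0.89 (SE 0.10, adjusted p = 0.00168). The DMSO arrays lay at 7.66 to 7.76 at 6 h and 7.63 to 7.93 at 12 h, below all 6 LBH589 arrays. The other was Fth1, the heavy chain of ferritin, which rose by 0.25 (adjusted p = 0.0281). Slc7a11, the cystine importer that feeds glutathione synthesis, rose by 1.15 (SE 0.22, adjusted p = 0.0233). At 6 h it had been 0.73 lower under LBH589 than in DMSO (adjusted p = 0.0187), at 8.74, 7.65 and 8.15 against 9.43, 8.46 and 8.84. By 12 h under LBH589 it stood at 9.48, 9.39 and 9.14, and in DMSO at 8.88, 9.31 and 8.72.

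Chac1, which degrades glutathione and is a target of ATF4, moved the other way and was the largest fall. It read 11.23, 10.40 and 11.51 at 6 h and 10.04, 9.85 and 9.98 at 12 h, a change of -1.09 (SE 0.14, limma adjusted p = 0.0043). It fell in DMSO as well, by 0.80 (adjusted p = 0.0307), from 9.98, 9.67 and 10.44 to 9.29, 8.79 and 9.60. At 6 h it had been 1.02 above DMSO (adjusted p = 7.96e-05). Of the 27 ATF4 and amino acid response genes, 22 had a change under 0, 2 rose (Slc7a11 and the amino acid transporter Slc38a2, by 0.25) and 2 fell (Chac1 and the leucine transporter Slc7a5, by 0.21). In DMSO 6 of the 27 fell and none rose, and the medians were -0.21 under LBH589 and -0.30 in DMSO. Hspa5, the main chaperone of the endoplasmic reticulum, fell by 0.33 (adjusted p = 0.0382), the only call among 30 genes of that list. With arrays centred on the reference genes the median of those 30 was 0.01 in place of -0.11.

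Genes of chromosome segregation gave more falls than any other list examined. Of 29 mitosis and G2/M genes tested, all 29 had a change under 0, 15 were called lower and none higher, with a median of -0.34. In DMSO the median was 0.00 and none was called. All genes had a median of 0.01, and 1.27% of them were called lower. Ttk, a kinase of the spindle checkpoint, read 9.87, 10.19 and 9.95 at 6 h and 9.34, 9.61 and 9.29 at 12 h, a change of -0.59 (SE 0.09, adjusted p = 0.00961). Cenpe, a kinetochore motor, fell by 0.59 (adjusted p = 0.0132), from 10.17, 10.45 and 10.20 to 9.60, 10.09 and 9.35. In both genes the times did not overlap, and MP570 fell most.

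Bub1, another checkpoint kinase, fell by 0.54 (adjusted p = 0.0148) and Prc1, which bundles microtubules between separating chromosomes, by 0.49 (adjusted p = 0.0201). The remaining calls, named after their values were seen, ranged from -0.31 in Tpx2 to -0.47 in Top2a, and include Plk1 (-0.32), Aurka (-0.38), Kif11 (-0.38) and Aurkb (-0.43). At 6 h these genes had not stood uniformly away from DMSO: the 6 h difference was 0.08 in Ttk, 0.23 in Bub1 and -0.15 in Cenpe, and none of the 3 passed (adjusted p = 0.0757 to 0.533). The 15 calls became 0 without MP525 at 6 h, MP570 at 6 h or MP570 at 12 h under LBH589, and 3 without MP567 at 6 h. They became 0 without the tumour block, 0 with the tumour as a random block, and 22 with the 6 LBH589 arrays fitted alone. The sign was the less sensitive part: 28 of the 29 were under 0 after quantile normalization and 25 after centring on the reference genes.

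Genes of the kinetochore, the complex that ties chromosomes to spindle fibres, gave 3 of the 15 largest falls. Cenpl read 8.78, 8.37 and 8.31 at 6 h and 8.16, 7.80 and 7.02 at 12 h, a change of -0.83 (SE 0.15, adjusted p = 0.0185). Ska3 went from 9.26, 9.51 and 9.41 to 8.84, 8.79 and 8.28, and Cenpq from 10.17, 10.22 and 9.57 to 9.67, 9.64 and 8.40. MP570 had the lowest 12 h level in all 3 of these genes. Stil, needed for centriole duplication, fell by 0.67 (adjusted p = 0.0182), from 10.24, 10.29 and 10.01 to 9.90, 9.68 and 8.97.

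Of 30 DNA replication genes tested, 5 were called lower and none higher, and 27 had a change under 0, with a median of -0.28 against -0.01 in DMSO. Orc1, a subunit of the origin recognition complex, fell by 0.63 (adjusted p = 0.0121), from 8.93, 9.30 and 8.70 to 8.43, 8.72 and 7.90. E2f8, a repressor of the E2F family, fell by 0.54, and Mcm10 and Cdc45, which help to start replication forks, by 0.53 and 0.45. Rrm1, the large subunit of ribonucleotide reductase, was the fifth call at -0.33. The 5 calls became 0 without MP525 at 6 h, MP570 at 6 h or MP570 at 12 h under LBH589, 1 without MP567 at 6 h, 9 without MP525 at 12 h, and 0 without the tumour block or with it as a random block.

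DNA repair and checkpoint genes gave 5 falls among 22 tested, with 21 under 0 and a median of -0.30 (0.06 in DMSO). Brca1, which acts in homologous recombination, started high: at 6 h it was 0.64 above DMSO (adjusted p = 0.000584), at 9.61, 9.97 and 9.53 against 8.96, 9.40 and 8.82. By 12 h it had fallen to 8.93, 9.47 and 8.64, a change of -0.69 (SE 0.11, adjusted p = 0.0143), and DMSO stood at 8.85, 9.56 and 9.22. Wee1, the kinase that holds cells before mitosis, fell by 0.63 and Chek1, the replication checkpoint kinase, by 0.53. Those 2 had already been lower than DMSO at 6 h, by 0.57 and 0.79. Msh6, of mismatch repair, fell by 0.51 (adjusted p = 0.0441), and Exo1, a repair nuclease, by 0.33.

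Further repair genes were among the 15 largest falls. Gen1, which cuts Holliday junctions, fell by 0.68 (adjusted p = 0.0113), from 9.93, 9.95 and 9.80 to 9.5, 9.23 and 8.92. Ddias, linked to survival after DNA damage, fell by 0.68 (adjusted p = 0.0143), and Atad5, which unloads the replication clamp PCNA, by 0.65 (adjusted p = 0.0345). The 5 calls of the repair list became 0 without MP525 at 6 h, MP570 at 6 h or MP570 at 12 h under LBH589 and 2 without MP567 at 6 h. They became 3 without MP567 at 12 h under LBH589 or any DMSO array other than MP567 at 12 h, and 3 with no filter on dim genes. They became 0 without the tumour block or with it as a random block.

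**Figure D4:**
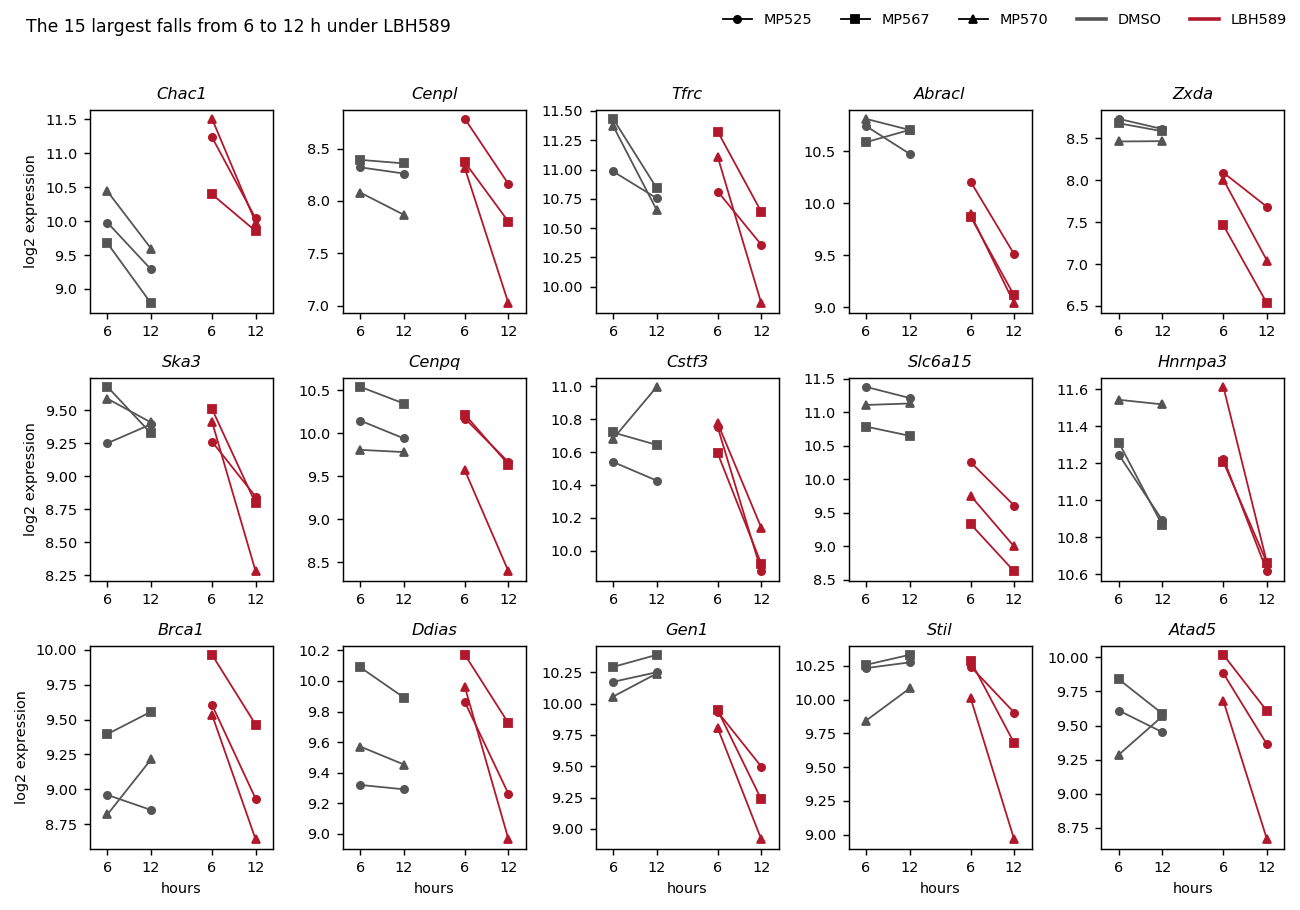
Log2 expression at 6 and 12 h in DMSO (grey) and under LBH589 (red) for the 15 largest falls; each line joins the 2 cultures of 1 tumour, marked by its symbol. Chac1 falls in both treatments, and in Cenpl the red line of MP570 ends lowest, at 7.02.

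Other large falls were of mixed function. Tfrc, the transferrin receptor that brings in iron, fell by 0.80 (SE 0.14, adjusted p = 0.0161), from 10.81, 11.32 and 11.11 to 10.36, 10.64 and 9.86, and moved by -0.51 in DMSO (adjusted p = 0.259). Cstf3, of the machinery that cuts the 3′ ends of transcripts, fell by 0.73 (SE 0.10, adjusted p = 0.00648), from 10.75, 10.59 and 10.78 to 9.87, 9.92 and 10.14, with 0.04 in DMSO. Slc6a15, a neutral amino acid transporter, fell by 0.70 (adjusted p = 0.00829) below a level that was already 1.31 under DMSO at 6 h. Hnrnpa3, an RNA-binding protein, Abracl, a small actin-linked protein, and Zxda, a zinc finger protein, fell by 0.70, 0.77 and 0.77.

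Neuronal genes went both ways. Of 29 neuronal and synaptic genes, Syt1 and Syn1, both of synaptic vesicles, rose by 0.51 and 0.41, and Dcx, a microtubule protein of migrating young neurons, and Stmn3 fell by 0.49 and 0.30. None of the 29 was called in DMSO, where Syt1 went from 8.11, 8.10 and 8.43 to 8.39, 8.47 and 8.56. Dcx read 9.89, 9.22 and 10.44 at 6 h and 9.35, 8.81 and 9.93 at 12 h under LBH589, while in DMSO it went from 10.57, 9.70 and 10.83 to 10.80, 10.20 and 11.13. The difference between those time changes was -0.83 (limma adjusted p = 0.0746). Prph, an intermediate filament protein of peripheral neurons, rose by 1.04 (adjusted p = 0.0121), from 7.72, 8.01 and 8.40 to 8.78, 9.02 and 9.44. Rian, a long non-coding RNA of the imprinted Dlk1 to Dio3 cluster, rose by 0.95 (SE 0.14, adjusted p = 0.00961) after it had stood 1.54 above DMSO at 6 h. It was the only call among 5 genes of that cluster.

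Interferon response genes had larger changes in the solvent control than under LBH589. In DMSO 21 of 39 rose and none fell, where 0.220% of all genes were called higher, and the median change was 0.94. Under LBH589, Cmpk2, a nucleotide kinase, and Sp100, a nuclear body protein, rose, by 0.84 (adjusted p = 0.0478) and 0.50 (adjusted p = 0.0259), and the median was 0.32. Of the 39, 34 had a change above 0 under LBH589, and 13 rose at an unadjusted p under 0.05 (limma). The DMSO change was the larger one in all 39. The difference between the 2 time changes passed adjustment for 1 of the 39, and 20 had an unadjusted p under 0.05. At 6 h, 15 of the 39 were already called lower under LBH589 than in DMSO and 3 higher. Of all 18652 genes, 2984 were called lower at 6 h and 3349 higher, 34.0% in both directions together. Rnf213, a large ubiquitin ligase, read 8.12, 8.01 and 8.32 at 6 h and 8.38, 8.32 and 8.47 at 12 h under LBH589, a change of 0.24 (95% confidence interval -0.04 to 0.53). In DMSO it went from 8.17, 7.87 and 8.08 to 10.28, 9.92 and 10.84, a rise of 2.31, and the 2 changes differed by -2.07 (SE 0.19, limma adjusted p = 0.000689). For Rnf213 both treatments started at like levels, and only the DMSO cultures were high at 12 h.

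Ddx58, the RIG-I sensor of viral RNA, changed by 0.32 under LBH589 and rose by 2.0 in DMSO, a difference of -1.68 (SE 0.20, adjusted p = 0.00774). Usp18, a brake on interferon signalling, went from 7.81, 7.53 and 7.23 to 8.22, 8.10 and 7.78 under LBH589 and from 8.35, 8.91 and 9.17 to 11.43, 10.93 and 12.03 in DMSO. Its difference of -2.14 did not pass (adjusted p = 0.0925). The 21 rises in DMSO became 9 without MP525 at 6 h, 10 without MP570 at 6 h, 12 without MP567 at 6 h, 11 without MP525 at 12 h and 10 without MP570 at 12 h in DMSO, and 3 without the tumour block. The 2 rises under LBH589 became 0 without MP525 or MP570 at 6 h or MP567 or MP570 at 12 h, 1 without MP525 at 12 h under LBH589 or, in DMSO, without MP525 at 6 or 12 h or MP570 at 6 h, 4 without MP570 at 12 h in DMSO, 0 without the tumour block or with it as a random block, and 10 with the LBH589 arrays alone.

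**Figure D5:**
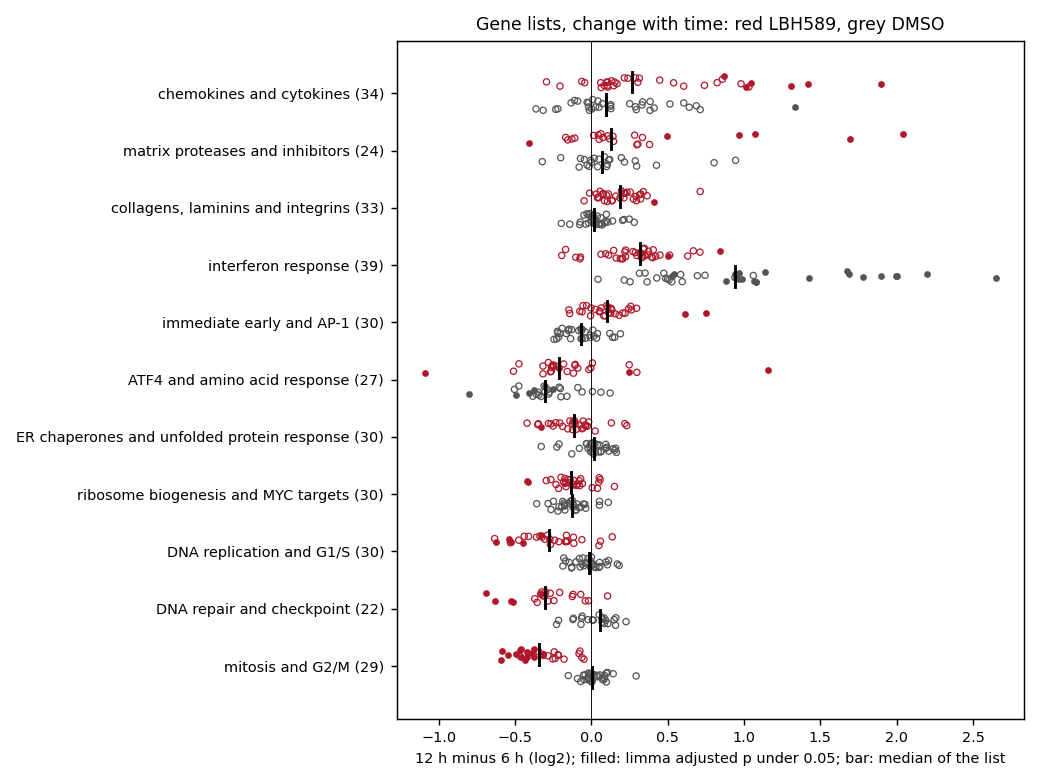
Change from 6 to 12 h (log2) of each member of 11 gene lists under LBH589 (red) and in DMSO (grey); filled points have a limma adjusted p under 0.05, black bars are medians, and the number of genes is in brackets. The mitosis list lies wholly under 0 under LBH589 with a median of -0.34, and the interferon list lies to the right in DMSO with a median of 0.94.

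Class I antigen presentation gave 2 rises among 14 genes, where 0.724% of all genes were called higher. In DMSO 2 of the 14 were called higher too, and the medians were 0.18 under LBH589 and 0.16 in DMSO. The change was above 0 for 13 of them under LBH589 and for all 14 in DMSO. Mr1, which presents vitamin B metabolites, rose by 0.74 (SE 0.12, adjusted p = 0.0121), from 7.62, 7.70 and 7.66 to 8.37, 8.50 and 8.34, and lay between 6.40 and 6.84 on all 6 DMSO arrays. B2m, the shared light chain, rose by 0.27 under LBH589 (adjusted p = 0.0486) and by 0.37 in DMSO (adjusted p = 0.0272).

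Several genes with a large difference from DMSO at 6 h were not called between 6 and 12 h of drug. Cpt1a, which carries fatty acids into mitochondria, stood 2.69 above DMSO at 6 h and changed by 0.17 from 6 to 12 h under LBH589 (95% confidence interval -0.11 to 0.45). Foxo1, a transcription factor of stress and survival, stood 1.67 above DMSO at 6 h and changed by -0.02 (-0.22 to 0.18). It read 9.74, 9.30 and 9.22 at 6 h and 9.66, 9.31 and 9.23 at 12 h. Cdkn1a, the p21 cell cycle inhibitor, stood 1.76 above and changed by -0.04 (-0.39 to 0.31). Hspa1b, an inducible heat shock protein, stood 2.35 above and changed by -0.38 (-0.69 to -0.07), and its call did not pass (adjusted p = 0.176); its neighbour copy Hspa1a changed by -0.23 (-0.67 to 0.20), and probes can share signal between such near-identical genes.

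Bcl2l11, the pro-apoptotic protein BIM, stood 1.01 above DMSO at 6 h and changed by -0.10 (95% confidence interval -0.31 to 0.11). Of 21 pro-apoptotic and 12 anti-apoptotic genes none was called, nor any of 25 FOXO factors and targets or 18 HDACs and sirtuins. Hdac1 changed by 0.07 (-0.15 to 0.28) and Hdac11 by 0.02 (-0.22 to 0.27). Myc changed by 0.13 (-0.06 to 0.33), Mycn by 0.06 (-0.16 to 0.29) and Ccnd1, the cyclin of G1, by -0.15 (-0.60 to 0.29). Among 15 cell cycle inhibitors, Cdkn1c (p57) and Btg2, a brake on proliferation, rose by 0.52 (adjusted p = 0.0434) and 0.39 (adjusted p = 0.0212).

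Lists of ribosome and metabolic genes held few calls. Of 30 genes of ribosome biogenesis and MYC targets, 24 had a change under 0 and 2 fell, Rrp9, of pre-ribosomal RNA processing, and Nme1, a nucleotide kinase, each by 0.42. The medians were -0.13 under LBH589 and -0.13 in DMSO, and with arrays centred on reference genes the first was -0.01. In the fatty acid synthesis list, Acss2, which makes acetyl-CoA from acetate, rose by 0.40 and Elovl6, which lengthens fatty acids, fell by 0.30. Single calls in other lists were Aldoc, a glycolytic enzyme of astrocytes (0.60), Mt3, a brain metallothionein (0.52), Vim, vimentin (0.31), Gtse1, a mitotic p53 regulator (-0.54), Smpd3, a sphingomyelinase (-0.30), and Tubb5, a tubulin (-0.20). Of 12 neuron markers 2 were called higher, Syt1 and Calb1, a calcium-binding protein of neurons (0.50).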

How the data were processed

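The deposited table holds expression as log2, since its values run from 1.5 to 14.5. The submitters' processing notes list Agilent Feature Extraction 10.7.3.1, although the arrays are Affymetrix; for summarisation and normalization the method is not stated there or in the labels, and the values were used as deposited. Per the labels' protocols, Qiagen, Ambion and GeneChip kits served for RNA extraction, cDNA synthesis and biotin labelling. Precision is limited by the number of arrays.

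Of the probe sets, 1814 named several genes and 16010 were not listed; neither were used. Of the 23521 naming 1 gene, 23328 were named through RefSeq by Entrez number and 193 kept the annotation's symbol. A gene with several probe sets (1082 genes) was represented by the one with the highest mean, and was tested if above the array's 25th percentile on at least 3 of 12 arrays, which left out 3528 genes.

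One fit (limma 3.58.1, R 4.3.3; lmFit, eBayes with trend) held the 4 group means and the tumour as a fixed block on all 12 arrays, leaving 6 residual degrees of freedom. Tests were two-sided, with Benjamini-Hochberg adjustment. It was tested on simulated data. The pairing comes from the tumour named in the labels: deviations from the group means correlated at 0.450 to 0.805 for 18 same-tumour pairs and at -0.510 to -0.0577 for the others.

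Genes named were the 15 largest called rises and 15 largest called falls (leaving out undescriptive symbols, 14 higher and 3 lower), up to 8 called differences from DMSO a side, up to 4 called members of each list, and 12 fixed genes; others are said to be named after their values were seen. The comparison, the gene lists and the named genes were chosen with earlier results of these data known. Of 1006 list symbols, 912 matched a gene on the array, 8 through an older symbol. List counts are descriptions without a test. Alternatives were fits with other blocks or arrays, 3 scalings, other filters and probe set rules, no trend, and leaving out each array or tumour.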

Additional observations from a re-analysis of the deposited data

Results flagged for a closer look

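The change from 6 to 12 h differed between LBH589 and DMSO for 2 genes, both interferon responsive, by the limma test of the difference itself. For Rnf213 the difference was -2.07 (SE 0.19, adjusted p = 0.000689), and it was negative under every alternative run, between -2.23 and -1.79, with adjusted p from 2.44e-05 to 0.106. It lost the call without the tumour block (adjusted p = 0.0856) and without tumour MP525 (adjusted p = 0.106). For Ddx58 the difference was -1.68 (SE 0.20, adjusted p = 0.00774), between -1.92 and -1.48 over the alternatives, with adjusted p from 0.000331 to 0.272. It lost the call without the tumour block (adjusted p = 0.0764), without the LBH589 12 h array of MP570 (0.0564), without tumour MP525 (0.271) and without tumour MP570 (0.272).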

How the results depend on the processing

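With no replicate block for the tumour, 0 genes were called for LBH589 12 h minus 6 h in place of 371, 4 for DMSO in place of 58 and 0 for their difference in place of 2. With the tumour as a random block the counts were 25 under LBH589 and 23 in DMSO. With a replicate block of tumour within treatment they were 1782, which held all 371, 245 in DMSO and 230 for the difference. With only the arrays of a contrast they were 1947, which again held all 371, and 144 in DMSO. Centring arrays on medians gave 241 under LBH589 (73 higher, 168 lower). Centring on reference genes gave 783 under LBH589 (694 higher, 89 lower) and 13 for the difference, and quantile normalization gave 8 for the difference. Without the trend 140 genes were called under LBH589 and 28 in DMSO. Leaving out each array in turn gave 10 to 785 genes under LBH589, 20 to 58 in DMSO and 1 to 11 for the difference; leaving out each tumour gave 9 to 105, 13 to 41 and 0 to 5. The filter and probe set rules moved none of these 3 counts by over 1.5 times. The counts of list members under these settings were added after seeing the data: with the tumour as a random block, 0 mitosis, 0 DNA replication and 0 DNA repair genes were called lower and 1 chemokine and 0 matrix protease genes higher under LBH589. With no filter the DNA repair count was 3 in place of 5 and the interferon count under LBH589 1 in place of 2, and the latter was also 1 with the mean of probe sets or every probe set.

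Of the 75 named genes that changed under LBH589, all kept their sign under every setting. Mmp13, Saa3, Ccl5, Il6, Acod1 and Gsta4 kept the call without each array, and Mmp13, Saa3 and Ccl5 also without each tumour. All 75 kept it with the LBH589 arrays alone and with the block within treatment, and 10 with the random block. Over all named genes and settings, 1672 values kept their side of the threshold, 779 lost it and 3 gained it. How the array signals were summarised is not known, and 3 tumours limit the precision.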

Other observations

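The genes below were chosen after their values were seen and are given as values only, with no test of any group. Besides Ptgs2, the phospholipase Pla2g4a, which frees arachidonic acid, rose by 0.69 (limma adjusted p = 0.0238), from 6.50, 6.88 and 6.33 at 6 h in MP525, MP567 and MP570 to 7.18, 7.71 and 6.89 at 12 h. Ptges, which makes prostaglandin E, rose by 0.51 (adjusted p = 0.021), from 7.83, 8.13 and 8.09 to 8.26, 8.68 and 8.64. In DMSO those 2 genes changed by 0.27 and 0.07, neither called. Neat1, the long non-coding RNA of paraspeckles, rose by 0.97 (adjusted p = 0.00676), and Malat1, its neighbour, changed by 0.29 (adjusted p = 0.247). The glutathione transferases Gstt1 and Gstm4 rose by 0.58 (adjusted p = 0.0132) and 0.57 (adjusted p = 0.0258), with 0.02 and 0.01 in DMSO.

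Of 7 condensin genes tested, whose products compact chromosomes for mitosis, 5 were called lower, against 1.27% of all genes. The family was picked after its values were seen, and no leave-out fits are given for it. Smc2 fell by 0.33 (adjusted p = 0.049), Smc4 by 0.37 (adjusted p = 0.0306), Ncaph by 0.40 (adjusted p = 0.0361), Ncapd3 by 0.39 (adjusted p = 0.0361) and Ncapg2 by 0.50 (adjusted p = 0.0366). Ncapd2 changed by -0.15 (adjusted p = 0.31) and Ncaph2 by -0.06 (adjusted p = 0.762). Their DMSO changes lay between -0.02 in Ncapd2 and 0.12 in Ncapd3 and Ncaph2. The MHC class II genes H2-Ab1 and H2-DMa rose by 0.53 (adjusted p = 0.049) and 0.38 (adjusted p = 0.0482), while H2-Eb1 changed by -0.09 (adjusted p = 0.622) and Ciita, their regulator, by -0.04 (adjusted p = 0.882).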
